A study of Dendrobaena veneta with 18 samples.

Results

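Pairs of assembled features, each found without the other in some libraries, were collected from a transcriptome of the earthworm Dendrobaena veneta. That transcriptome was assembled without a reference genome. A feature is what the assembler numbered as a gene, and a component is a set of features that the assembler kept under 1 identifier. Both features of a pair came from the same component. A pair was kept when at least 3 libraries held 30 or more expected counts of the first feature and 0 of the other, and at least 3 libraries held the reverse, with libraries of both kinds in gut and in cerebral ganglion. The rule gave 43 pairs made of 81 features in 38 components, out of 243619 features in 161562 components. Up to 100 pairs were to be kept, so none was dropped. The 2 features of a pair are called its forms. Because the counts themselves chose the pairs, which libraries hold which form is described here without a test.

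The worms were adults kept for 28 days at 15 °C in the dark in topsoil with carbamazepine, an anticonvulsant that blocks voltage-gated sodium channels, at 0, 0.6 or 10 mg/kg. These are called control, low dose and high dose, and control soil received the methanol solvent alone. RNA with a poly(A) tail was sequenced from the gut and from the cerebral ganglion, the nerve mass that serves the worm as its brain. The labels list 3 libraries for each tissue and dose, and 17 libraries had a column of values, 8 from gut and 9 from ganglion. Control gut library 1 has no column and was not analysed here. Library totals ran from 12536754 to 18285270 expected counts. The labels do not say whether a library is 1 animal or a pool, or whether replicates are separate animals, so the p-values below measure only the spread between these libraries. The files pair no identifier with a gene name, so neither tissue could be checked against its marker genes and no function can be given for a form.

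An assembler that works without a genome joins reads through short shared words and splits the result wherever sequences part. In an outcrossing animal such as an earthworm, the alleles that an individual inherits can differ enough to be written as separate features. Copies of a gene that lie apart in the genome, a copy that only some individuals carry, and transcripts spliced in different ways can be written apart in the same manner. An inherited difference is carried by every cell of an animal, so its form can appear in any tissue of 1 worm that expresses it.

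The rule was met by 0.399% of the 10770 pairs of features of 1 component in which each feature reached 30 counts in at least 3 libraries. In 33 components there was 1 pair and in 5 components there were 2 pairs that shared a feature. The summed count of a pair ran from 426 to 27855, with a median of 1610. Of the 43 pairs, 29 had exactly 3 libraries in at least 1 direction, so many stood at the edge of the rule. The last pair inside it by summed count, DN96930_c3_g7 and DN96930_c3_g12, had 4 libraries in each direction and at most 86 counts in a library. Another 57 pairs fell just outside with only 2 libraries in a direction. The most abundant of these, DN81923_c4_g1 and DN81923_c4_g2, had 5 and 2 such libraries and a summed count of 9789. Without the requirement on tissues 114 pairs would have qualified.

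Which libraries came from the same worm is not in the labels and was inferred from other features. Over 2652 features outside the member components, each present in some libraries and at 0 in others, the correlation of presence was computed for every pair of libraries. It was 0.679 or higher for 10 pairs of libraries, which were taken as matched. The highest value among unmatched pairs was 0.475, between control ganglion 3 and high dose ganglion 3. Control gut 3 and high dose ganglion 3 came next at 0.398, and all other unmatched pairs were at or below 0.215. All matched libraries shared their dose label.

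Each ganglion library was taken as 1 worm, which gave 9 worms, and 6 of them had a matched gut library. A worm below means such a set of matched libraries. Whether a set is 1 animal, a pool or a divided sample was not tested. Each worm is named here after its ganglion library. Control worm 1 was ganglion 1 with gut 2, and control worm 3 was ganglion 3 with gut 3. Low dose worm 1 was ganglion 1 with gut 1 and gut 3, and low dose worm 2 was ganglion 2 with gut 2. High dose worm 1 was ganglion 1 with gut 2, and high dose worm 2 was ganglion 2 with gut 1 and gut 3. Control worm 2, low dose worm 3 and high dose worm 3 had no gut library. The replicate numbers of the labels therefore did not follow these worms across tissues, and some gut replicates of 1 dose were matched to the same worm. Low dose gut 1 and gut 3 were the most alike, with a mean chi-square per feature of 2.32, against 17.6 for high dose gut 1 and 3 and 34.3 to 132 for other library pairs of 1 group. Counting noise alone gives a mean near 1 in this measure. They were counted as 1 sample in the tests.

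Few worms stood behind some pairs. In 35 pairs, libraries of at least 2 worms met the rule in each direction, and in 2 pairs at least 3 worms did. In the other 8 pairs at least 1 direction rested on libraries of 1 worm. Low dose worm 1, with its 3 libraries, alone carried 8 of these directions, and high dose worm 2 carried 1.

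The most abundant pair was DN87531_c2_g3 and DN87531_c2_g4. In the control ganglia g3 had 0, 9639 and 8 counts in worms 1, 2 and 3, and g4 had 840, 0 and 17, while both control guts had 0 of each. In the low dose ganglia g3 had 4487, 112 and 0 counts and g4 had 0, 85 and 0. In the low dose guts g3 had 120, 3 and 115 counts in libraries 1, 2 and 3, and g4 had 0 in all 3. The g3 form was thus high in low dose worm 1 in the ganglion and present alone in both guts of that worm. In the high dose ganglia g3 had 0, 16 and 14 counts and g4 had 41, 10930 and 1255. In the high dose guts g3 had 1, 0 and 0 counts and g4 had 92, 0 and 80. High dose worm 2, the owner of gut 1 and gut 3, thus held almost only g4 in all 3 libraries, and its ganglion held far more than its guts.

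DN95935_c5_g3 and DN95935_c5_g4 were typed in all 17 libraries. In the control ganglia g3 had 0, 1606 and 0 counts and g4 had 152, 0 and 446, and the control guts 2 and 3 had 0 of g3 with 216 and 412 of g4. In the low dose ganglia g3 had 871, 558 and 723 counts with 0 of g4, and the low dose guts had 946, 794 and 896 of g3 with 0, 1 and 0 of g4. The 3 low dose worms all held g3, while the control worms were divided between the forms. In the high dose ganglia g3 had 632, 22 and 379 counts and g4 had 0, 183 and 166. In the high dose guts g3 had 36, 739 and 15 counts and g4 had 195, 5 and 292. High dose worm 1 therefore held g3, high dose worm 2 mostly g4, and high dose worm 3 both.

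Component DN86603_c2 gave 2 pairs, because g2 met the rule with both g3 and g4. In the control ganglia g2 had 0, 670 and 0 counts, g3 had 109, 0 and 118, and g4 had 248, 2 and 315. In the control guts g2 was at 0, g3 had 214 and 164 counts, and g4 had 80 and 73. The forms g3 and g4 thus appeared together wherever g2 was missing among the controls. In the low dose ganglia g2 had 967, 481 and 3 counts, g3 had 0, 0 and 29, and g4 had 0, 0 and 187. In the low dose guts g2 had 896, 854 and 892 counts and both others were at 0. In high dose worm 2 all 3 forms stood together: g2 had 748 counts in the ganglion and 548 and 787 in the guts, g3 had 58, 70 and 103, and g4 had 96, 34 and 42. High dose worm 1 had 0 counts of g2, 19 of g3 and 134 of g4 in the ganglion, and 8, 96 and 28 in the gut. High dose worm 3 had 2, 438 and 71 counts of the 3 forms in its ganglion.

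DN99782_c0_g4 and DN99782_c0_g7 were the pair most unequal in the length read from the ratio of counts to FPKM, at 26 and 169 bases. Such a length may fall short of the feature's own, which would overstate the inequality. In the control ganglia g4 had 171, 0 and 251 counts and g7 had 0, 0 and 1659, and the control guts had 41 and 44 of g4 with 0 and 149 of g7. In low dose libraries g4 was at 0 throughout, and g7 had 1773, 66 and 1953 counts in the ganglia and 451, 24 and 431 in the guts. In the high dose ganglia g4 had 0, 262 and 53 counts and g7 had 4, 0 and 304, and in the guts g4 had 69, 0 and 134 with g7 at 0. Control worm 3 held both forms in ganglion and gut, and high dose worm 2 held g4 alone in all 3 libraries. A length of 26 bases leaves few places for a read to fall, so levels per length are coarse for this form.

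DN76549_c4_g2 was the usual form of its pair, and DN76549_c4_g3 stood alone only in low dose worm 1. The g2 form had 73, 64 and 82 counts in the control ganglia, 42 in low dose ganglion 3, and 47, 46 and 162 in the high dose ganglia. It had 87 and 547 counts in the control guts and 124, 652 and 135 in the high dose guts, and g3 was at 0 in all these libraries. In low dose worm 1 g2 was at 0, and g3 had 1379 counts in the ganglion and 48 and 47 in the guts. Low dose worm 2 had 47 counts of g2 and 26 of g3 in the ganglion, but 161 and 1 in the gut. This direction of the rule therefore rested on 1 worm.

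DN96688_c0_g2 and DN96688_c0_g4 differed between the tissues of low dose worm 2. In the control ganglia g2 had 0, 0 and 286 counts and g4 had 139, 187 and 0, and the control guts had 0 and 235 of g2 with 221 and 0 of g4. In low dose worm 1 g2 was at 0, and g4 had 254 counts in the ganglion and 473 and 499 in the guts. Low dose worm 2 had 0 counts of g2 and 139 of g4 in the ganglion, but 564 of g2 and 449 of g4 in the gut. The other low dose and the high dose ganglia had at most 31 counts of g2 and at most 2 of g4, and the high dose guts had none of either.

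**Figure D1:**
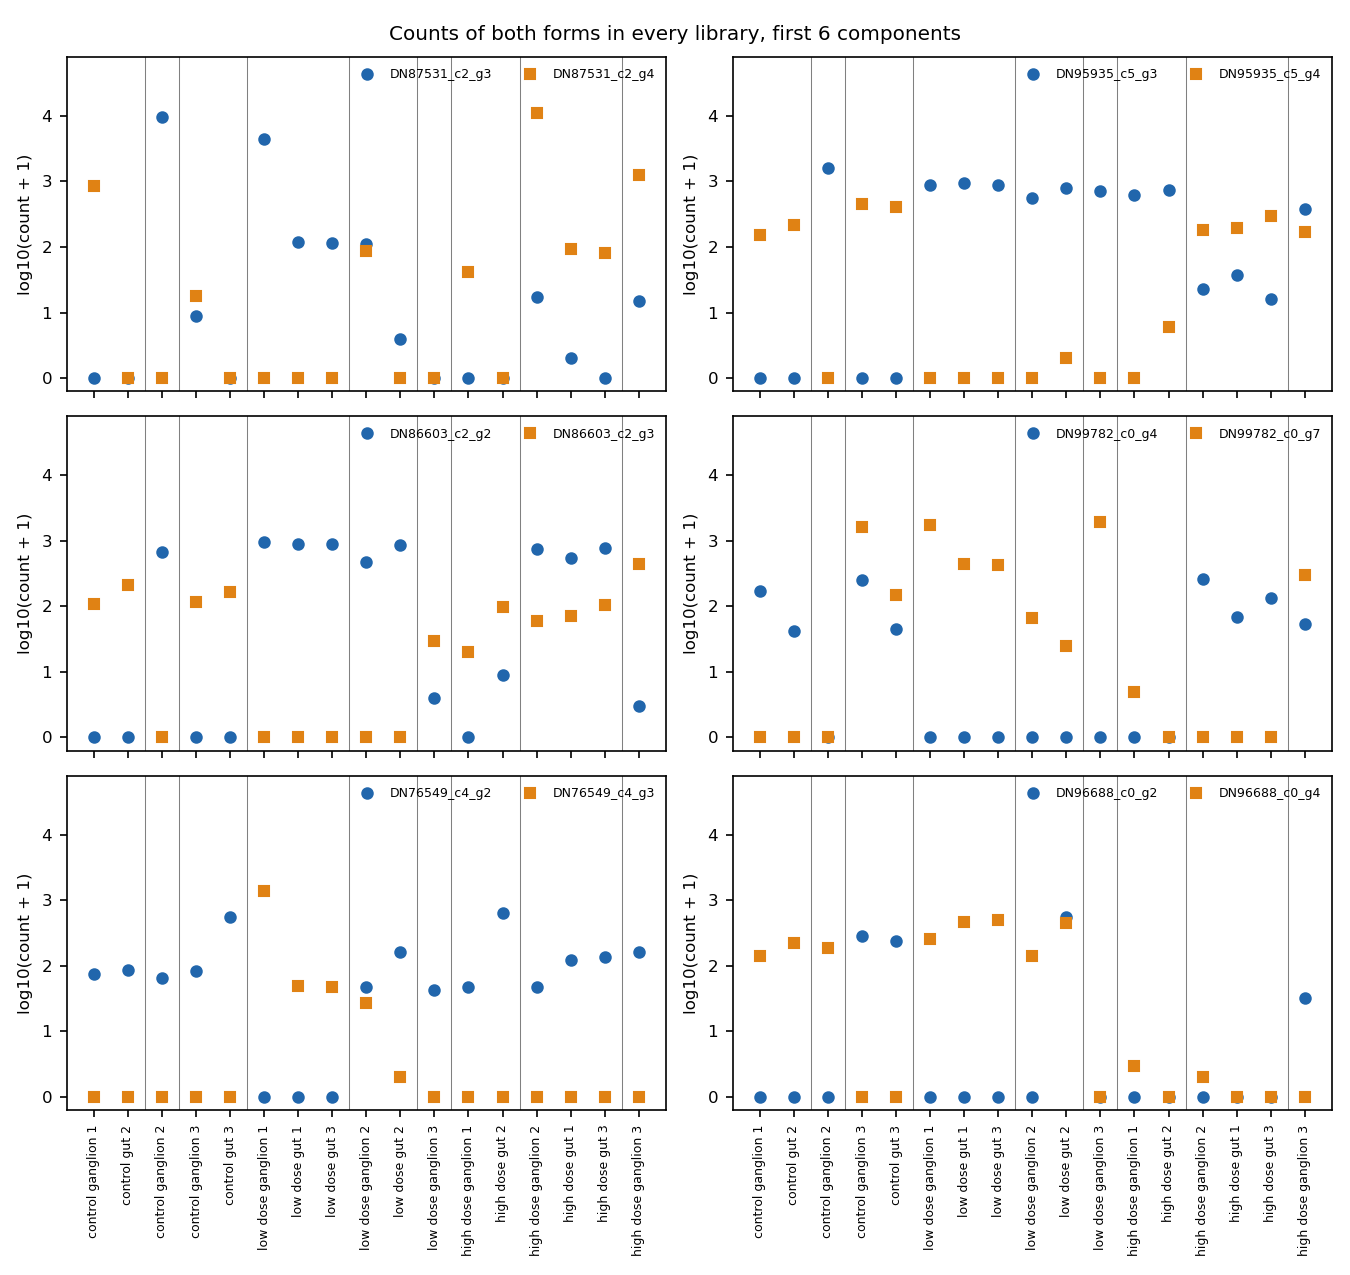
Counts of both forms of the most abundant pair of each of the first 6 components in 17 libraries. Each panel is a component, each symbol a form in 1 library, with log10 of the expected count plus 1 on the vertical axis and libraries grouped by matched worm on the horizontal axis. In most libraries 1 form lies high and the other at 0, as in low dose worm 1, where DN76549_c4_g3 had 1379 counts in the ganglion.

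To describe all pairs alike, a library was typed for a pair when both forms together had at least 30 counts. A form counted as alone when it held at least 95% of that sum. Of 731 combinations of pair and library, 535 were typed. The first form was alone in 227, the second in 223, and both forms were present in 85, or 15.9% of those typed. The absent form was at exactly 0 counts in 392 of the 450 libraries with 1 form alone and left a trace in the other 58.

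Ganglion and gut libraries matched as 1 worm mostly held the same form. In ganglion and gut libraries matched as 1 worm, 236 comparisons were typed in both tissues, the state was the same in 223 of them, or 94.5%, and the tissues held opposite forms in 0. In ganglion and gut libraries of different worms of the same dose, 364 comparisons were typed, 144 or 39.6% had the same state, and 117 or 32.1% held opposite forms. The 8 matched library pairs ranged from 70.8% to 100% and the 16 unmatched ones from 23.5% to 54.6%, so the ranges did not overlap. With 1 gut library per worm, 157 of 169 comparisons, or 92.9%, were the same, and again 0 were opposite. The rule asked for each form alone in both tissues but not in the same worm. These shares rest on the counts that chose the pairs, and the libraries of a worm recur in every comparison. Libraries were also matched because they shared the presence of other on/off features, so agreement within matched libraries is in part built in. Whether a pair is made of alleles, of copies of a gene or of transcripts of a gene was not tested, since sequences of the features were not used here.

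The balance of the forms was also alike in both tissues of a worm. The share of the first form differed between ganglion and gut by a median of 0 and a mean of 2.04 percentage points in matched libraries, and by 54.4 and 50.5 points in libraries of other worms. It lay within 10 points in 96.6% of matched and 37.6% of other comparisons. In 24 matched comparisons both tissues held both forms. There the shares differed by a median of 6.39 points and at most by 23.2 points. No such value was taken for libraries of other worms.

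**Figure D2:**
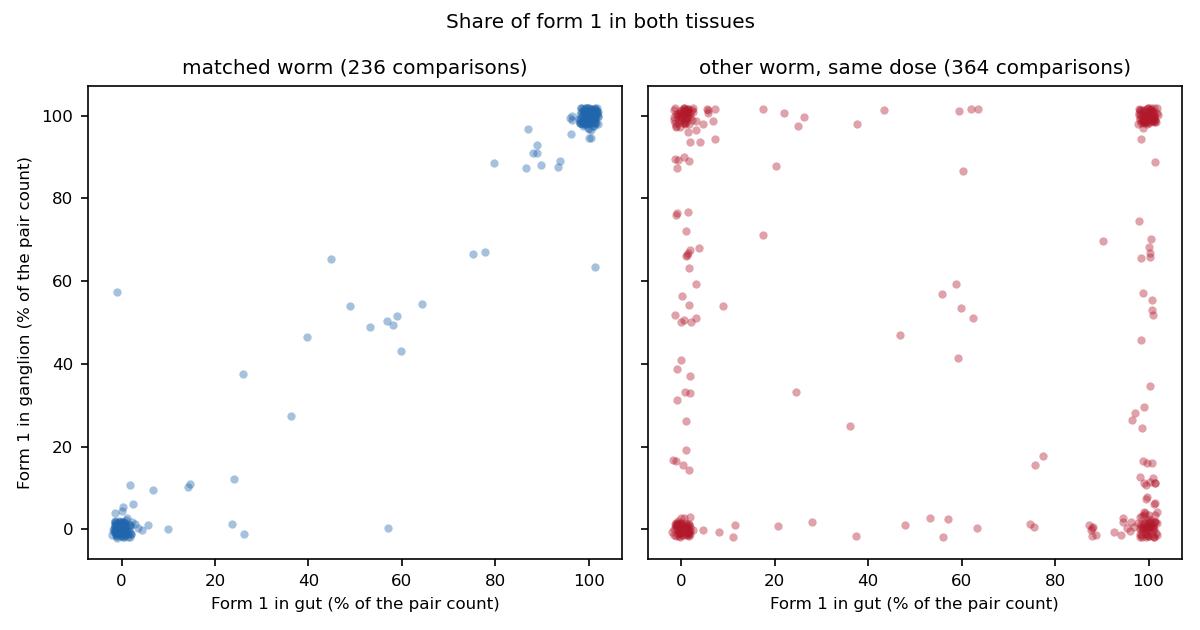
Percentage of a pair's count held by its first form in ganglion (vertical axis) against gut (horizontal axis), 1 point per pair and library pair, with libraries matched as 1 worm in the left panel and libraries of other worms of the same dose in the right panel. Points are shifted at random by up to 2 percentage points so that those at the same place can be seen. Matched points lie on or near the diagonal, with 96.6% within 10 points of it, against 37.6% in the right panel.

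The 13 matched comparisons with different states all had both forms in 1 tissue and 1 form alone in the other. Low dose worm 2 gave 7 of them, including DN96688_c0, DN76549_c4 and DN79798_c8. In DN91212_c0, a pair chosen here after its values were seen, g1 held 58.9% of the pair in the ganglion of that worm and 0% in its gut. Outside low dose worm 2, DN86603_c2_g2 held 0% in the ganglion of high dose worm 1 and 22.2% in its gut, beside g4. In high dose worm 2 DN102196_c2_g1 held 0% in the ganglion and 10.0% in gut 1, and DN85468_c1_g2 held 95.5% and 87.8%. The other 3 differed by less than 10 points. A further 47 matched comparisons were typed in 1 tissue only, and 269 among other worms.

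Low dose gut 2 and low dose ganglion 2, the libraries of low dose worm 2, also held low counts of features abundant in low dose worm 1. Outside the member components, 156 features had at least 300 counts in low dose gut 1 and under 10% of that in gut 2, and 0 of them were at 0 in gut 2, where they stood at a median of 4.66%. In the reverse direction 71 of 124 such features were at 0. For the ganglia, 1 of 274 features high in ganglion 1 was at 0 in ganglion 2, with a median of 3.88%. Few features at 0 were also found in other libraries, with 0.59% for features high in high dose gut 2 and measured in gut 3, and 1.06% for high dose ganglion 1 measured in ganglion 2. Over all other guts the share at 0 ran from 0.59% to 57.3% and the median level from 0% to 3.34%, and over all other ganglia from 1.06% to 35.1% and from 0.66% to 4.57%. Among the members, 13 forms were alone in low dose gut 1 while the other form was alone in gut 2, and only 3 of the 13 were at 0 in gut 2, with a median of 2.08% of their count in gut 1, whereas all 13 were at 0 in the reverse direction. The part of these traces in the libraries typed as holding both forms was not tested.

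Libraries with both forms were unevenly spread over the worms. High dose ganglion 3 had both forms in 13 of its 32 typed pairs, or 40.6%. Control ganglion 2 had 32.0%, high dose gut 1 had 31.2% and low dose ganglion 2 had 30.8%. The 3 libraries of low dose worm 1 had 0 such pairs among 38, 36 and 38 typed. The remaining 10 libraries ranged from 9.09% to 21.2%. In the 85 libraries with both forms the minor form held a median of 25.0% of the count. It held 30% or more in 37 of them and 5% to 10% in 14.

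Over whole worms, the first form stood alone in 121 of 387 combinations of worm and pair, the second form in 122, both forms in 56, and 88 were under 30 counts. In 31 pairs at least 1 worm held both forms, and in 12 pairs none did. All 9 worms were typed in 11 pairs. The 43 pairs gave 43 different patterns over the worms when a worm under 30 counts was taken as a state of its own. Over the worms typed in both, the pairs of DN98134_c0, which share a feature, sorted alike, and so did those of DN99782_c0.

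DN79798_c8_g2 and DN79798_c8_g3 were the pair with both forms in the most libraries, 8 of 17. The g2 form had 0, 55 and 28 counts in the control ganglia and g3 had 62, 23 and 4, and the control guts had 0 and 53 of g2 with 47 and 5 of g3. In low dose worm 1 g2 had 121 counts in the ganglion and 228 in each gut, with g3 at 0. High dose worm 2 had 70 of g2 and 33 of g3 in the ganglion, and 82 with 25 and 93 with 31 in its guts. The first form thus held 68.0% in the ganglion and 76.6% and 75.0% in the guts of that worm. High dose worm 3 held both forms with the balance turned, at 11 of g2 and 52 of g3.

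DN86261_c1_g2 and DN86261_c1_g4 held both forms in 7 libraries, at shares that varied little. The g2 form made up 33.1% of the pair in control ganglion 2, 37.7% and 31.8% in low dose ganglia 2 and 3, and 27.8% and 26.1% in high dose ganglia 1 and 3. In gut it made up 26.4% in low dose library 2 and 36.2% in high dose library 2. Control worm 3 and high dose worm 2 held at least 97.4% of g2, and control worm 1 and low dose worm 1 held g4 alone. In this pair the worms thus fell at the ends of the scale or between 26.1% and 37.7%.

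**Figure D3:**
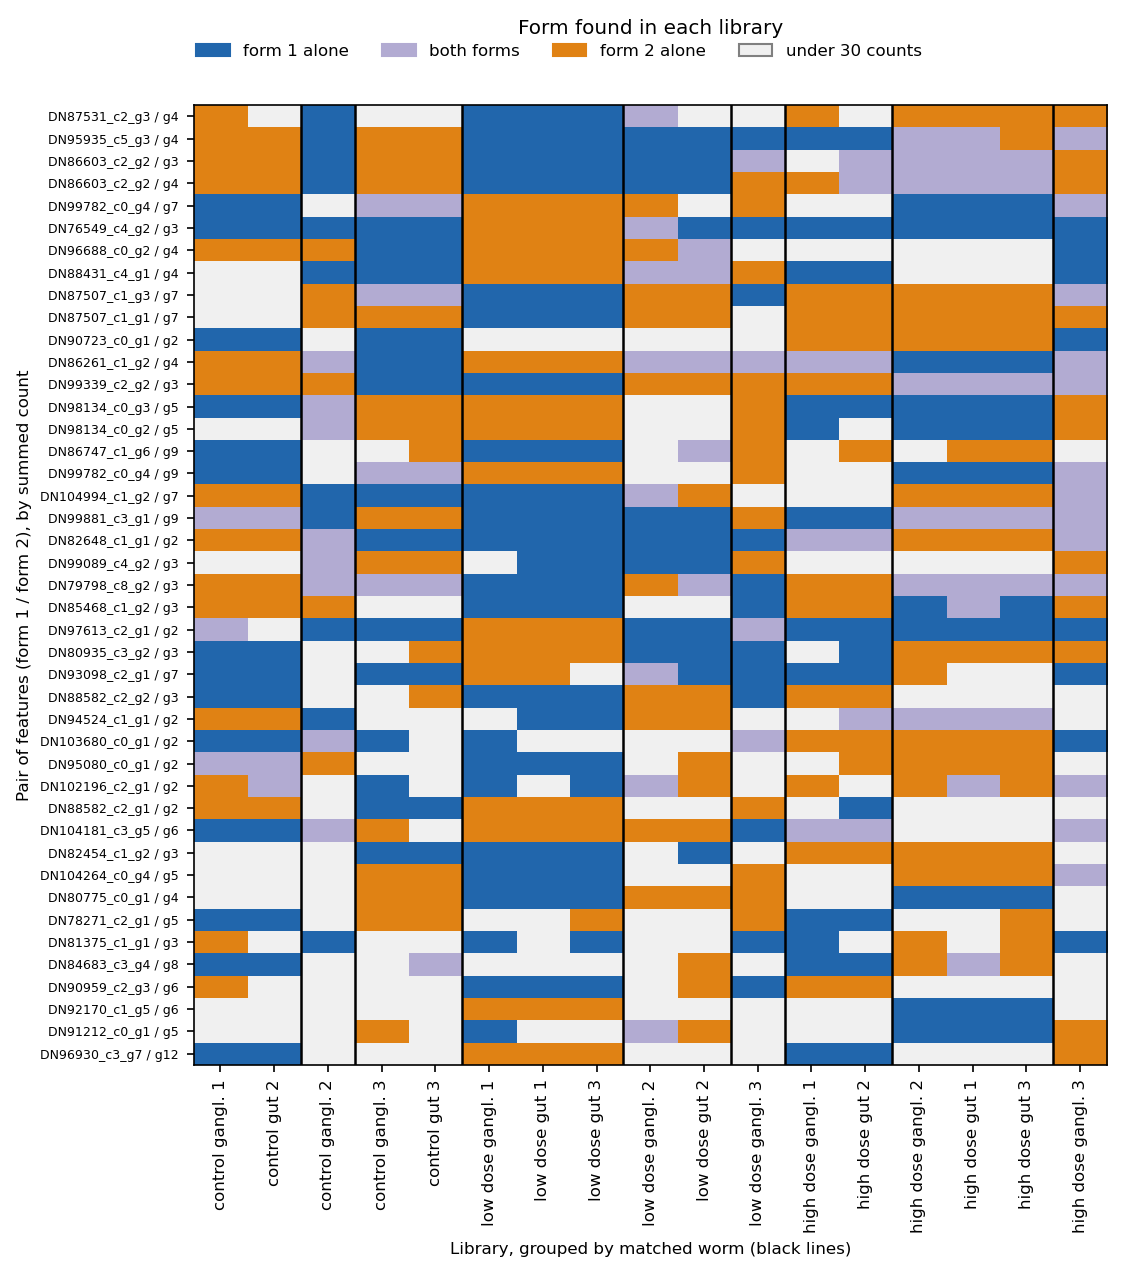
Form found in each of 17 libraries (columns, grouped by matched worm) for each of 43 pairs (rows, by summed count). Colours mark the first form alone, the second form alone, both forms, or under 30 counts. Columns of 1 worm carry nearly the same colours, and the 3 columns of low dose worm 1 show no pair with both forms.

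Most forms were carried at more than 1 dose of carbamazepine. Counting a form as carried when it was alone or present with the other, 49 of 86 forms over the pairs were carried by worms of all 3 dose groups, 29 by worms of 2 groups and 8 by worms of 1 group. Of those 8, 5 were found in low dose worms and 3 in high dose worms. In 0 of 43 pairs did all 3 worms of a dose hold 1 form while the other 6 worms held the other. Only the 11 pairs with all 9 worms typed could meet this. Among typed guts a dose group separated the forms in 7 pairs. One of these was DN87531_c2, whose typed guts came from 1 low dose worm and 1 high dose worm. Among typed worms alone, DN82454_c1 was separated by dose: g2 stood alone in 4 control and low dose worms and g3 in high dose worms 1 and 2, with the other 3 worms under 30 counts. In the guts DN82454_c1_g3 had 0 and 0 counts at control, 1, 1 and 0 at the low dose and 87, 138 and 147 at the high dose. It was chosen here after its values were seen, and its high dose guts came from 2 worms. In 8 of 129 combinations of pair and dose all 3 worms held the same form alone, as with DN95935_c5_g3 at the low dose. Worms of the same dose had the same state in a median of 33.3% of typed pairs over 9 worm pairs, and worms of different doses in 34.5% over 27. The most alike were high dose worm 3 and control worm 3, which shared the state in 67.9% of 28 typed pairs and held opposite forms in 0. The same libraries had the highest unmatched correlation outside the members. High dose worm 1 and control worm 2 followed at 63.6%, and the least alike worms shared 9.38%.

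Dose was then tested across the whole table with edgeR's quasi-likelihood F test over the 3 dose groups of a tissue, called at a Benjamini-Hochberg adjusted p under 0.05. In gut 71 of the 81 members passed the filter on low counts and 1 was called, where 0.0399% of all 50071 features tested were called. It was DN86603_c2_g3, at 16.1 and 11.9 CPM in the control guts, 0 CPM in the 3 low dose guts, and 5.40, 5.25 and 7.43 CPM in the high dose guts, where CPM is the count scaled to the library total. The 3 groups did not overlap, and the low dose guts came from 2 worms. Its adjusted p was 0.0429 with edgeR, and 0.299 when high dose guts 1 and 3, matched as 1 worm, were averaged. Leaving out 1 library at a time gave 0.0464 to 0.313 with edgeR. In the ganglia the same form had 8.19, 0 and 7.74 CPM in control worms, 0, 0 and 2.24 CPM in low dose worms and 1.38, 4.29 and 32.1 CPM in high dose worms, and these groups overlapped.

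In the ganglion 59 members were tested and 0 were called with edgeR, where 0.00416% of 48132 features were called. Before adjustment, 22 gut members, or 31.0%, had a p under 0.05 with edgeR, beside 8.76% of all features, and 8 ganglion members, or 13.6%, beside 12.1%. With high dose guts 1 and 3, matched as 1 worm, averaged as well, 14 of 67 gut members had such a p, beside 5.01% of all features. DESeq2 called 13 members in gut, where it called 2.77% of all features, and 2 of 59 in ganglion, where it called 5.17%. A member had to be high in some libraries and at 0 in others to be chosen, so no difference from the other features is read from these shares. The cause of the share in gut was not tested. When the counts of all features of a component were added together, 0 of 38 member components were called in gut, where 0.0579% of 37996 components were called. In the ganglion 0 of 38 were called, where 0.00525% of 38076 were. Before adjustment 8 components in gut, or 21.1%, had a p under 0.05 with edgeR, beside 9.21% of all components, and 2 in ganglion, or 5.26%, beside 13.8%. With high dose guts 1 and 3 averaged as well, the gut values were 8 components, beside 5.38% of all. DESeq2 called 6 in gut and 0 in ganglion, where it called 2.95% and 6.79% of all components. Without the filter on low counts, edgeR called 56 members in gut, where it called 4.61% of all features, and 38 in ganglion, where it called 5.57%. On component sums without the filter it called 10 in gut and 9 in ganglion, where it called 4.4% and 6.25% of all components.

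How many single forms were called between the tissues depended on whether worms were matched. Ganglion was set against gut with edgeR over all groups, which weights the 3 doses equally, and 6 of 81 members were called, or 7.41%, where 49.5% of all 69689 features were called. Of these, 5 were higher in ganglion, where 27.1% of all features were called higher, and 1 was higher in gut, where 22.4% were. Before adjustment 9 members, or 11.1%, had a p under 0.05, beside 55.6% of all features. With high dose guts 1 and 3, matched as 1 worm, averaged as well, 4 of 81 members were called, where 46.3% of all features were. The median log2 difference of ganglion over gut was 0.58 over the members and 0.21 over all features. The rule asked for each form in libraries of both tissues and for libraries at 0. It thus kept out forms of 1 tissue and chose forms that vary widely within a tissue. No difference from the other features is read from these shares. In bulk tissue, fewer cells of a type and less RNA per cell cannot be told apart.

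The called forms were few enough for the best to be described. DN87531_c2_g4 was higher in ganglion by 8.27 ± 2.52 on the log2 scale (SE, adjusted p = 0.0174 with edgeR), and DN87531_c2_g3 by 7.86 ± 2.52 (adjusted p = 0.0207 with edgeR). Some gut groups held only 0 counts of these forms, so the fitted size depends on the prior count and is no bound. Their counts, given above, were 1255 or more for 1 of the forms in 4 ganglia and never above 120 in a gut, but control ganglion 3 and low dose ganglion 3 had fewer than 20 counts of each. DN86747_c1_g9 had 0, 0.221 and 0 CPM in the control ganglia, 0, 0.0800 and 2.86 in the low dose ganglia and 0, 0.444 and 1.47 in the high dose ganglia. In the guts it had 0.0750 and 4.80 CPM in controls, 0.361, 11.6 and 0 at the low dose and 14.2, 2.59 and 24.0 at the high dose. It was lower in ganglion by 3.99 ± 1.22 on the log2 scale (SE, adjusted p = 0.0154 with edgeR), and the ranges of the tissues overlapped. Without low dose ganglion 2 the adjusted p of DN87531_c2_g4 was 1.0 with edgeR and its difference 5.64, and without control ganglion 2 that of DN87531_c2_g3 was 0.0786 and its difference 4.65. Each of these calls was also lost without either control gut or without low dose gut 2. The adjusted p of DN86747_c1_g9 was 0.333 with edgeR without control gut 3 and 0.232 without low dose gut 2. The count of called members moved with single libraries: it was 3 without high dose gut 3, where 46.6% of all features were called. Leaving out a control gut or low dose gut 2 leaves 1 sample in that group, so no count is read from those fits here.

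With a term for each matched worm and 1 gut sample per worm, an alternative chosen after seeing the data, edgeR called 17 of 81 members between tissues, where 49.1% of all features were called. Of these, 10 were higher in ganglion and 7 higher in gut, and 5 were also among the 6 called without this term. DN87531_c2_g4 was then higher in ganglion by 7.84 ± 0.73 on the log2 scale (SE, adjusted p = 0.00013 with edgeR) and DN87531_c2_g3 by 5.29 ± 0.45 (adjusted p = 0.000153 with edgeR). DN86747_c1_g9 was lower by 6.54 ± 0.64 (adjusted p = 9.95e-05 with edgeR). Of the member components 17 of 38 were called, where 49.1% of all components were, and 11 of them were among the 12 called without the term. Without the worm term, DESeq2 called 11 members and 14 member components between tissues, where it called 52.8% of all features and 57.3% of all components. With edgeR and no filter on low counts, 28 members and 16 member components were called, where 20% of all features and 22.8% of all components were.

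Counts were also added over all features of a component, which takes in features that belong to no pair. Of 38 member components 12, or 31.6%, were called with edgeR, where 54.2% of all 48730 components were. The split was 5 higher in ganglion, where 29.7% of all were called so, and 7 higher in gut, where 24.4% were. The median log2 difference of ganglion over gut was -0.03 over the member components and 0.20 over all. The within-group coefficient of variation was 82.7% over all features and 70.9% over all components.

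DN84683_c3 had the smallest adjusted p and was lower in ganglion. It had 5.04, 2.73 and 1.18 CPM in the control ganglia, 1.41, 12.8 and 6.57 in the low dose ganglia and 7.86, 6.29 and 1.69 in the high dose ganglia. In the guts it had 28.5 and 63.5 CPM in controls, 93.0, 28.6 and 89.3 at the low dose and 28.5, 19.4 and 38.1 at the high dose. The tissues did not overlap, and the difference was -3.27 ± 0.48 on the log2 scale (SE, adjusted p = 9.5e-05 with edgeR). Its forms g4 and g8 had at most 4.74 CPM in any library and were not called between tissues, and the pair held 8.89% of the component's count.

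DN103680_c0 was higher in ganglion. It had 6.01, 4.13 and 7.74 CPM in the control ganglia, 4.03, 1.99 and 12.4 in the low dose ganglia and 16.3, 13.5 and 5.65 in the high dose ganglia. In the guts it had 2.33 and 1.24 CPM in controls, 1.59, 0.985 and 1.33 at the low dose and 5.78, 3.66 and 7.14 at the high dose. At each dose the lowest ganglion stood above the highest gut except at the high dose, and within all 6 worms the ganglion stood above every gut. The difference was 1.74 ± 0.43 on the log2 scale (SE, adjusted p = 0.00385 with edgeR). Its form g1 was at 0 in high dose worms 1 and 2, which held g2 alone in both tissues.

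DN87531_c2, with both its forms higher in ganglion, was higher there by 8.43 ± 2.31 on the log2 scale (SE, adjusted p = 0.00837 with edgeR). It ranged from 0 to 812 CPM in ganglia and from 0 to 8.65 CPM in guts. DN86261_c1 was lower in ganglion by 0.58 ± 0.16 on the log2 scale (SE, adjusted p = 0.00668 with edgeR), with 24.5 to 47.1 CPM in ganglia and 25.5 to 72.2 CPM in guts. Its forms held 24.5% of that count and stood the other way: the fitted difference was 1.09 for g2 and 1.18 for g4, neither called, and the summed pair was higher in ganglion in all 6 worms. The ranges of the component overlapped, and the adjusted p was 0.105 with edgeR without the filter on low counts.

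**Figure D4:**
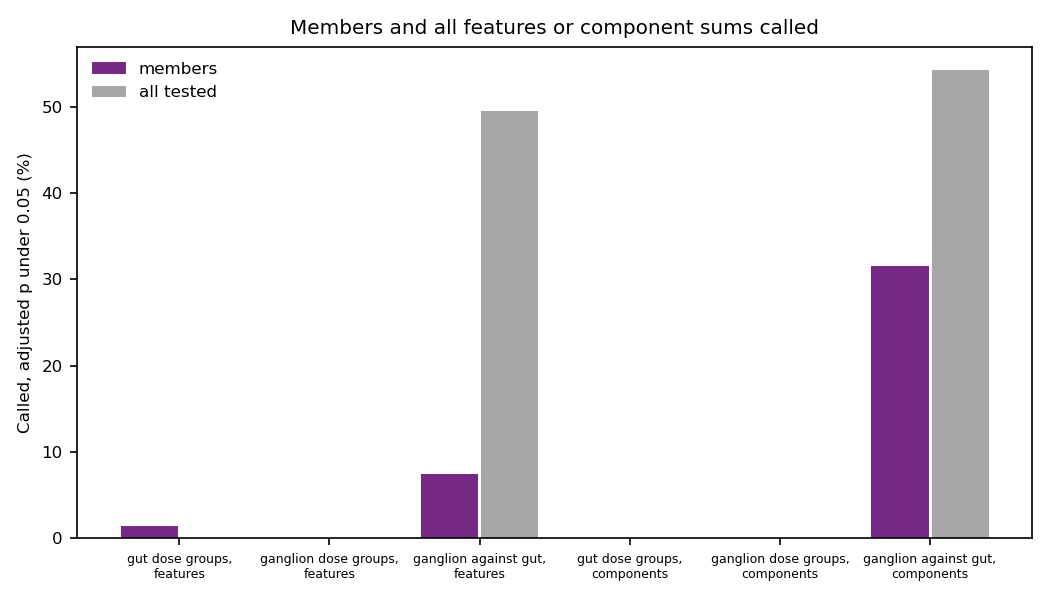
Percentage of member features or member components called (bars on the left of each group) beside the percentage of all features or components called (bars on the right) in each edgeR comparison. In ganglion against gut, 7.41% of member features were called, beside 49.5% of all features, and 31.6% of member components, beside 54.2% of all components.

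Within worms that had both tissues, the summed CPM of a pair went either way between ganglion and gut. The median over worms of the log2 ratio of ganglion over gut ran from -2.79 to 6.11 over the 43 pairs, and 0.12 was its median over pairs. It lay beyond 1 in either direction in 19 pairs. The ratio was above 0 in every worm for 11 pairs and below 0 in every worm for 4 pairs.

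The lengths of the forms were not used by the rule. Read from the ratio of counts to FPKM, and so possibly effective lengths, they ran from 26 to 3942 bases with a median of 924. An effective length is shorter than the feature, so ratios that involve short forms may be overstated. The longer form was a median of 1.59 times the shorter, from 1.02 to 6.60 times. The forms were at least 2 times apart in length in 17 of 43 pairs, or 39.5%. Among 10069 other pairs of features of 1 component with as many counts, the median was 2.13 times, and 53.2% were at least 2 times apart. The forms of DN76549_c4 were 487 and 433 bases and those of DN87531_c2 were 1328 and 1645 bases. Those of DN95935_c5 were 1757 and 484 bases, and g2, g3 and g4 of DN86603_c2 were 3942, 2074 and 860 bases.

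Per length, the levels of the 2 forms were compared where each stood alone. Such libraries hold at least 30 counts of the pair by definition. No other pairs of features were set beside these levels, so how alike they are is described only. The mean FPKM of the higher form was a median of 1.86 times that of the lower over 86 combinations of pair and tissue. It was under 2 times in 48 of them and 5 times or more in 8. DN95935_c5_g3 averaged 36.1 FPKM in 5 ganglia and DN95935_c5_g4 averaged 42.0 FPKM in 2, and in gut they averaged 33.0 FPKM in 4 libraries and 46.5 FPKM in 3. The ranges of the forms overlapped in both tissues. Where each form was alone in at least 2 libraries of a tissue, the FPKM ranges overlapped in 38 of 66 combinations. The same form was higher in both tissues in 30 of 43 pairs.

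DN76549_c4 was far from equal. In its 1 ganglion g3 stood at 193 FPKM, against a mean of 11.0 FPKM for g2 in 7 ganglia. In gut g3 had 7.93 FPKM in 2 libraries of the same worm, against 39.1 FPKM for g2 in 6 libraries. The form that was higher in ganglion was thus the lower one in gut, with 1 worm behind g3.

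Other features of the same components were often present. The pair held a median of 68.9% of its component's count, and its components had 2 to 14 features with a median of 6. In 26 pairs another feature of the component reached 30 counts in at least 3 libraries, and 3 pairs had no other feature. Of the 196 libraries under 30 counts for a pair, 83 had at least 30 counts in other features of the component. Of the 5 components with 2 pairs, DN86603_c2 and DN99782_c0 had partners that went together: g3 and g4 of DN86603_c2 both reached 30 counts in 8 libraries, and g7 and g9 of DN99782_c0 in 6, with 0 libraries that split either. In DN87507_c1 the partners g1 and g3 stood together in 3 libraries and apart in 4. DN88582_c2 had 2 and 2 such libraries, and DN98134_c0 had 4 and 2.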

How the data were processed

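RNA was read by poly(A)-selected sequencing, per the labels' protocols. Assembly was de novo, per the series title, and the identifiers look like those of Trinity. CASAVA and DESeq2 are named, per the submitters' processing notes. The counting program, tool versions and assembler settings are not given in the sources, so how reads from stretches common to both forms were divided is unknown. The authors deposited expected counts, which are not scaled between libraries, and FPKM values, scaled to feature length and library size. No map from identifiers to gene names or sequences was used here.

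The members and lists were chosen with earlier results of these data known. The rule, the typing and the matching of libraries were computed from the counts in Python 3.11.15 with pandas 2.3.3. Presence for matching meant 5 or more counts, and a correlation over 0.6 matched 2 libraries. Lengths were counts divided by FPKM and scaled, from libraries with at least 10 counts. Expected counts were rounded and fitted over the whole table with edgeR 4.0.16 and limma 3.58.1 in R 4.3.3 (TMM scaling, minimum count 10, minimum total 15, 1 coefficient per group), and p-values were adjusted over all features kept. Low dose guts 1 and 3 were averaged to 1 sample. High dose guts 1 and 3, also matched as 1 worm, stayed separate in the main fits. Residual degrees of freedom were 4 in gut, 6 in ganglion and 10 over both. DESeq2 1.42.0, a fit with 1 term per matched worm (5 residual degrees of freedom) and the other settings are alternatives. The fits were tested on simulated counts. Those libraries were independent, spread less than the real ones and held no on/off forms, so that run does not measure errors for the members. The first 6 components by summed count, the pairs most unequal in length and with most libraries holding both forms, and at most 2 called members per direction and comparison, by adjusted p, are named. Features named otherwise were chosen after their values were seen.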

Additional observations from a re-analysis of the deposited data

Results flagged for a closer look

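The forms DN99782_c0_g4 and DN99782_c0_g9 changed places between the tissues where each stood alone. In ganglion g4 averaged 16.1 CPM (12.9 to 19.4 in 2 libraries) and g9 averaged 4.56 CPM (3.18 to 5.95 in 2 libraries). In gut g4 averaged 6.02 CPM (3.08 to 9.67 in 3 libraries) and g9 averaged 20.6 CPM (17.4 to 23.7 in 2 libraries). The ranges were apart in opposite directions in this pair only, out of 24 pairs with at least 2 libraries of each form in each tissue, and the difference was not tested. Both gut libraries with g9 alone came from low dose worm 1. Per length g4 was the higher form in both tissues, at 703 FPKM in ganglion and 232 FPKM in gut, beside 29.6 FPKM and 142 FPKM for g9, and the ranges overlapped in gut. The length read for g4 was 26 bases.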

How the results depend on the processing

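The number of pairs depended on the rule's limits: 83 pairs with a form present at 20 counts, 16 at 50 counts, 100 with at least 2 columns of each kind, 14 with at least 4, 69 with a form absent at up to 2 counts, and 88 with a form absent at up to 5% of the pair's count, the last chosen after seeing the data. Leaving out 1 library gave 28 to 42 pairs, with 28 without low dose gut 3. The same state in matched tissues stayed at 92.2% to 97.2% and the share with both forms at 14.3% to 17.1% without 1 library. The length ratio was 1.56 from 50 counts. The level ratio was 2.23 in CPM and 1.86 in FPKM, and 2.15 to 2.46 in CPM without 1 library.

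Member features called in gut numbered 56 without a filter (4.61% of all features called), 13 with DESeq2 (2.77%), 4 with low dose guts 1 and 3 separate (0.287%) and 0 with high dose guts 1 and 3 averaged, and 0 to 1 without 1 library. In ganglion they numbered 38 without a filter (5.57%) and 2 with DESeq2 (5.17%), and 0 without any 1 library. Between tissues they numbered 28 without a filter (20%), 11 with DESeq2 (52.8%) and 17 with a block on matched worms (49.1%, chosen after seeing the data). They numbered 3 to 6 (45.8% to 50.6%) without 1 library whose loss leaves more than 1 sample in its group. Member components called in gut numbered 10 without a filter (4.4% of all components), 6 with DESeq2 (2.95%) and 3 with low dose guts 1 and 3 separate (0.324%), and in ganglion 9 without a filter (6.25%). Without any 1 library whose loss leaves more than 1 sample in its group, both were 0. Between tissues 11 to 15 components were then called, where 50.3% to 55.1% of all components were. The cause of these changes was not tested. Leaving out a control gut leaves 1 sample in that group, assumed to vary like the others.

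Same-numbered libraries did not clearly pair. Their deviations from the group means correlated at -0.018 to 0.238 in ganglion, -0.113 to 0.052 in gut and -0.291 to 0.318 between tissues. Libraries with different numbers ran from -0.225 to 0.080, -0.093 to 0.113 and -0.361 to 0.328. The medians of same-numbered and other libraries were 0.070 and -0.026 in ganglion, 0.028 and -0.016 in gut, and -0.010 and -0.002 between tissues. With the replicate block, members called were 0 in gut, 0 in ganglion and 5 between tissues, where 0%, 0% and 46.9% of all features were called. Components called were 0, 0 and 12, where 0%, 0% and 52.1% of all components were. DN86603_c2_g3 then had an adjusted p of 0.85 with edgeR. No called form or component named between the tissues changed sign in any setting that tested it. Some other members did. With the matched worm term, the log2 difference of ganglion over gut of DN86603_c2_g3 went from 1.95 to -1.24. All 43 pairs were used, so the planned runs on all pairs and on the first 100 are the same.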
